A study of Mus musculus with 6 samples.

Results

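Immunoglobulin variable (V) segment genes were followed in RNA of mouse colon epithelium, taken as the cells that an EDTA and DTT wash releases from the tissue. Members were all gene rows whose symbol begins with Ighv, Igkv or Iglv. Only 1 such gene, Igkv1-110, is among the 14338 rows of the authors' deposited comparison table, which holds no row with a mean below 17.8. The same 3 prefixes were therefore applied to the 46078 gene rows of the deposited count table, through GENCODE M21 symbols (GRCm38), and gave 348 genes. These were 185 heavy chain segments on chromosome 12, 160 kappa segments on chromosome 6 and 3 lambda segments on chromosome 16. The count table covers 3 wild type and 3 Lingo2-/- libraries, the latter from mice that lack a working gene for the leucine-rich repeat membrane protein Lingo2. All mice were 2 months old and untreated, and no other allele is given in the labels. The labels do not say that the 3 libraries of a genotype came from separate animals, so a p-value speaks only of the spread among these libraries, and that spread may be technical.

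A B cell assembles the variable part of each antibody chain by joining 1 V segment to D and J segments in the heavy locus, or to a J segment in the kappa and lambda loci. The joined gene is transcribed with a constant gene, such as Ighm for IgM or Igha for IgA, and plasma cells of the gut secrete mostly IgA. Each B cell clone therefore uses few V segments, and reads spread over many segments are the usual picture of a mixed population, whereas a large clone raises the share of its own segments. V segments can also be transcribed unrearranged, which a count per gene does not tell apart from a joined transcript.

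Some segments are near copies of each other, and the sequences below show how little separates a pair of leading kappa segments and the leading heavy and lambda segments from a near copy. Each line gives the last 80 bases of the V exon as the GENCODE M21 transcript holds them, 5′ to 3′, with capitals at the bases that differ between the members of a pair. Igkv1-110 (chr6:68271188-68271267, plus strand) and Igkv1-117 (chr6:68121748-68121827, plus strand) were the kappa segments with most reads and differ at 4 of these bases.
Igkv1-110: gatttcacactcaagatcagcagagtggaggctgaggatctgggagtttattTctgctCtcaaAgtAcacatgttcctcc
Igkv1-117: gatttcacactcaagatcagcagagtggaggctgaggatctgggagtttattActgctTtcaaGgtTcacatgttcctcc

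The lambda segments Iglv1 (chr16:19085017-19085096, minus strand) and Iglv2 (chr16:19260401-19260480, minus strand) differ at 3 of these bases, and differed in reads, 75 against 20.
Iglv1: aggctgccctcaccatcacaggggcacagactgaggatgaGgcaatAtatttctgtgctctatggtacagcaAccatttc
Iglv2: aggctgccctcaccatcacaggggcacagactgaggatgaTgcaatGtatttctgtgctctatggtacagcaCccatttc

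The leading heavy segment, Ighv1-26 (67 reads), is identical over this stretch to Ighv1-34 (7 reads), so it is printed once and without capitals (chr12:114788372-114788451, minus strand).
Ighv1-26: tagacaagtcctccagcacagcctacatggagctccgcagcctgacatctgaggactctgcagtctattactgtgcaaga

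Over the whole transcript, a median of 17.1% of a segment's 50-base stretches also occurred in another gene of the annotation. That share was 50.9% for Igkv1-110, 49.9% for Igkv1-117, 49.0% for Ighv1-26 and 0% for Iglv3, and it was above 50% for 40 of the 348 segments. Reads that map equally well to near copies would be left out of a count of unique reads or split between copies, and somatic mutation moves reads from the reference sequence. Counts of single segments with near copies are therefore uncertain.

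The libraries differed in ways that touch these counts. Each wild type library had 25010618 to 28029583 gene reads, and each mutant library 7060769 to 13047682. The mitochondrial share of gene reads was 45.3% to 48.4% in wild type against 35.7% to 39.8% in mutant libraries, which lowers the share of every other gene in wild type. Lingo2 itself had 0, 7 and 0 reads in wild type and 1, 1 and 0 reads in mutant libraries, too few to check the labels. Wild type replicate 2 stood apart from the other 2 wild type libraries in B cell genes. The summed level of 14 B cell genes was 34.1, 97.7 and 52.8 CPM (counts-per-million of gene reads) for wild type, in the order of the replicate numbers, and 97.8, 113 and 85.5 CPM in mutant replicates. No gene of the 14 was at 0 in every library, and none of them passed the test between genotypes. By contrast, summed levels of 10 epithelial genes were 11936 to 14208 CPM in wild type and 15002 to 15363 CPM in mutant libraries, far above the B cell genes, with the epithelial adhesion gene Epcam at 609 to 795 CPM.

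V reads were rare and spread thinly. The 6 libraries held 2038 V reads together, and 201 of the 348 segments had at least 1 read. The 147 segments without a read had 0 of 106850222 gene reads, which allows a level of up to 0.0281 CPM over the pooled libraries. Of the detected segments, 69 had 10 reads or more, 32 appeared in all 6 libraries and 44 in 1 library only. A detected segment had a median of 6 reads over the 6 libraries. The 132 segments with 1 to 9 reads held 24.3% of V reads, and the 10 leading segments held 29.5%.

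Most reads fell on segments that are not pseudogenes. Of 218 segments not annotated as pseudogenes, 183 were detected. Of 130 pseudogenes, 18 were detected with 32 reads, which is 1.57% of V reads from 37.4% of segments. The share on pseudogenes was 1.39% ± 0.42 in wild type and 1.90% ± 1.38 in mutant libraries (SD, n = 3 each), and the groups overlapped. Heavy segments held 899 reads, kappa segments 971 and lambda segments 168.

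The share of V reads had a higher mean in the mutant libraries, a difference that passed no test with all 6 libraries in the main analysis and whose separation of groups depended on the scale. In the order of the replicate numbers, V reads were 288, 650 and 334 in wild type libraries, against 315, 190 and 261 in mutant libraries. In CPM this was 11.5, 23.2 and 13.3 in wild type (16.0 ± 6.29, SD, n = 3) and 24.1, 26.9 and 30.5 in mutant (27.2 ± 3.20). Every mutant library was above every wild type library, with wild type replicate 2 close to mutant replicate 1. The exact two-sided permutation test gave p = 0.10, the smallest that 3 against 3 allows, and 0.555 after Benjamini-Hochberg adjustment over the 37 quantities compared in this way. With mitochondrial genes left out of the denominator the levels were 22.3, 43.6 and 24.3 in wild type and 38.9, 41.9 and 50.7 in mutant libraries, which overlap. Scaled by the TMM factors of edgeR, which align the bulk of genes between libraries, they were 13.2, 24.2 and 14.2 against 21.7, 23.6 and 30.2, which overlap as well. In the whole table, 34.7% of tested genes had every mutant library above every wild type library in CPM and 12.3% in TMM-scaled CPM. Whether more B cells or more RNA per B cell lay behind a level cannot be told apart in bulk RNA.

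**Figure D1:**
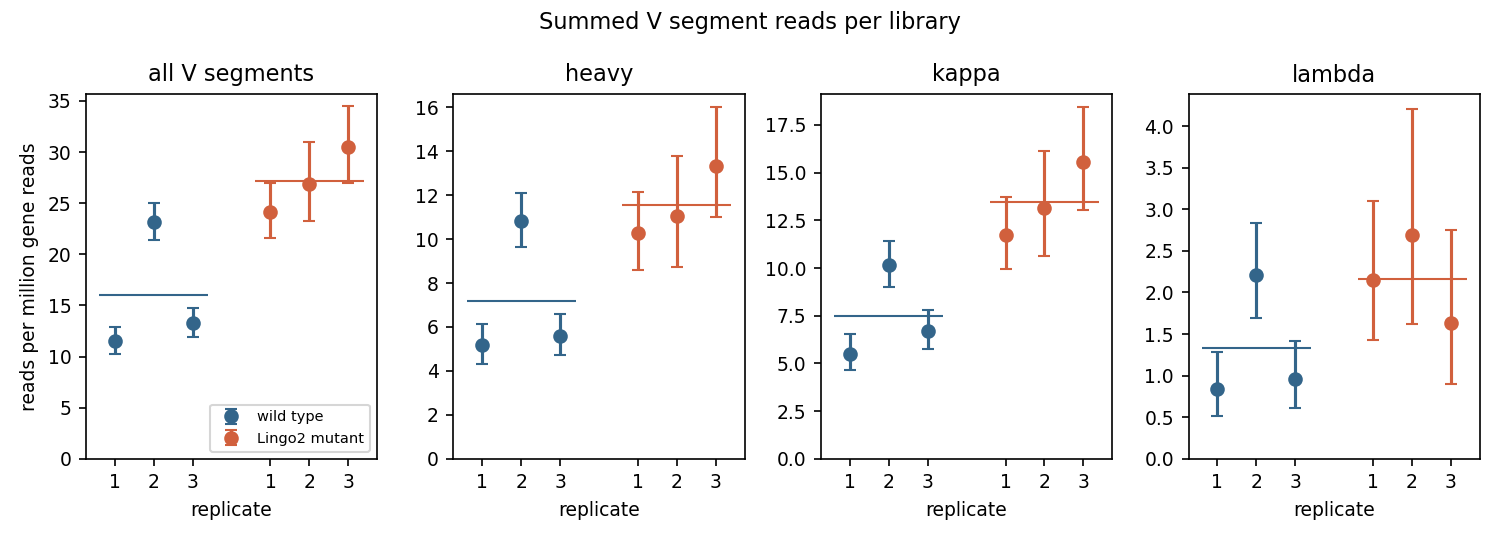
V reads in CPM (vertical axis, linear from 0) in each library by replicate number, for all V segments and for each locus. Points are libraries with exact 95% Poisson intervals for counting error, and horizontal lines are group means. Wild type replicate 2, at 23.2 over all segments, lies near the mutant libraries at 24.1 to 30.5, and the other wild type libraries at 11.5 and 13.3 lie below.

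The 3 loci were then summed and each sum tested as 1 row among all genes, with the quasi-likelihood F test of edgeR and Benjamini-Hochberg adjustment over all rows. Heavy segments, which make the variable part of the heavy chain, held 129, 303 and 141 reads in wild type and 134, 78 and 114 in mutant libraries. Their level was 5.16, 10.8 and 5.61 CPM in wild type and 10.3, 11 and 13.3 in mutant libraries, so the groups overlapped by wild type replicate 2. The fitted log2 difference of mutant over wild type was 0.45 ± 0.28 (SE, adjusted p = 0.427 in edgeR). Kappa segments, which serve most mouse antibodies as light chain, held 138, 285 and 169 reads in wild type and 153, 93 and 133 in mutant libraries. Their level was 5.52, 10.2 and 6.72 CPM in wild type and 11.7, 13.2 and 15.6 in mutant libraries, without overlap, although the TMM-scaled groups overlapped. The fitted log2 difference was 0.62 ± 0.21 (edgeR adjusted p = 0.153).

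Lambda segments, the minor light chain of the mouse, held 21, 62 and 24 reads in wild type and 28, 19 and 14 in mutant libraries. Their level was 0.840, 2.21 and 0.954 CPM against 2.15, 2.69 and 1.64, and the groups overlapped. The fitted log2 difference was 0.43 ± 0.37 (edgeR adjusted p = 0.569), and that of all V segments as 1 row was 0.54 ± 0.26 (edgeR adjusted p = 0.332). No sum passed the threshold of 0.05 with all 6 libraries in the main analysis. Without wild type replicate 2 the log2 differences were 0.83 for heavy (edgeR adjusted p = 0.0554), 0.87 for kappa (0.0432), 0.97 for lambda (0.181) and 0.87 for all segments (0.0151). Kappa and the total thus passed the threshold once that library was left out. It had the highest V level of the wild type libraries, and without wild type replicate 1 or 3 no sum passed the threshold. Without the filter on low counts, kappa (0.60, edgeR adjusted p = 0.00512) and the total (0.52, 0.00691) passed it too.

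The shares of the 3 loci among V reads overlapped between genotypes. Heavy segments took 44.8%, 46.6% and 42.2% of V reads in wild type and 42.5%, 41.1% and 43.7% in mutant libraries. Kappa segments took 47.9%, 43.8% and 50.6% against 48.6%, 48.9% and 51%. Lambda segments took 7.29%, 9.54% and 7.19% against 8.89%, 10% and 5.36%. The ratio of kappa to lambda reads was 6.57, 4.60 and 7.04 in wild type and 5.46, 4.89 and 9.50 in mutant libraries, a log2 difference of 0.09 with a permutation p of 0.80 (exact, two-sided). The ratio is imprecise, since a library held 14 to 62 lambda reads.

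Reads on V segments were also set against reads on the constant genes of the same chain. The ratio of heavy V to heavy constant reads was 0.140, 0.156 and 0.125 in wild type and 0.175, 0.162 and 0.197 in mutant libraries. The ratio of kappa V to Igkc, the kappa constant gene, was 0.651, 0.617 and 0.663 in wild type and 0.769, 0.699 and 0.853 in mutant libraries. In both ratios every mutant library was above every wild type library, with log2 differences of 0.35 and 0.26 (exact permutation p = 0.10 for each, adjusted 0.555). The lambda ratio overlapped, at 0.618, 0.689 and 0.436 against 0.667, 0.864 and 0.667. These ratios need no library size, since both counts come from 1 library. The share of reads that mapped to more than 1 place was 36.5% to 36.9% in wild type against 30.8% to 33.9% in mutant libraries, and its part in the ratios was not tested.

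**Figure D2:**
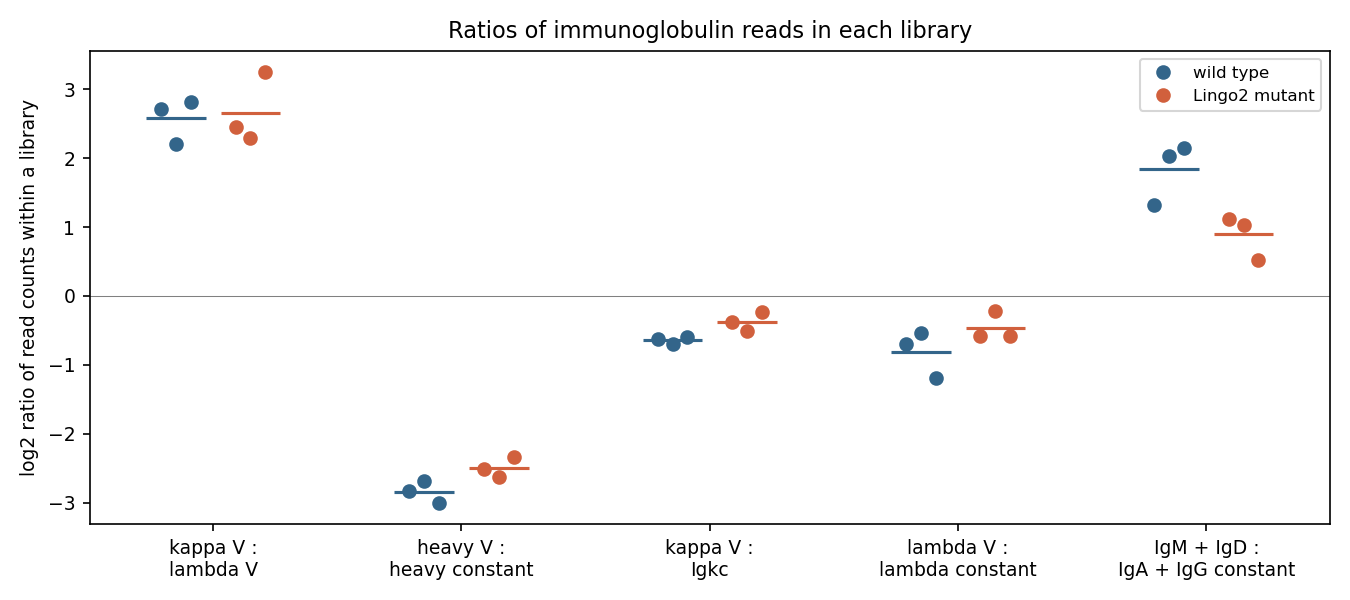
Log2 ratio of 2 read counts within each library (vertical axis), for 5 pairs of immunoglobulin gene groups named on the horizontal axis. Points are libraries and lines are group means of 3. The kappa V to lambda V and lambda V to lambda constant ratios overlap between genotypes, and the other 3 do not, with the IgM and IgD to IgA and IgG ratio lower in the mutant libraries.

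Among constant genes, reads of IgM and IgD (Ighm, Ighd) outnumbered those of IgA and IgG by 2.51, 4.11 and 4.43 times in wild type and by 2.18, 2.05 and 1.43 times in mutant libraries, and the groups did not overlap (log2 difference −0.94, exact permutation p = 0.10). Igha stood at 8.48, 9.35 and 7.24 CPM in wild type and 11.8, 16.0 and 21.4 CPM in mutant libraries (log2 difference 0.73 ± 0.23, edgeR adjusted p = 0.138). Ighm differed by −0.15 ± 0.21 (edgeR adjusted p = 0.734). The largest difference of a tested constant gene was that of Ighg1, 2.06 ± 0.52 (edgeR adjusted p = 0.0578). It rests on 6, 9 and 2 reads in wild type and 13, 5 and 13 in mutant libraries. Of the 12 constant genes 9 were tested and none was called, with 5 above 0 and a median log2 difference of 0.34. Of 11 plasma cell genes 10 were tested and none was called, with all 10 tested genes above 0 and a median of 0.17. Among them Mzb1 (0.02 ± 0.36), Xbp1 (0.03 ± 0.09) and Tnfrsf13b (0.03 ± 0.30) were near 0. Xbp1 stood at 97.2 to 127 CPM and Sdc1 at 79.2 to 113 CPM, against 2.66 to 10.1 CPM for Jchain. Which cells held these reads was not tested. The untested Tnfrsf17 had 1, 0 and 1 reads in wild type and 0 in each mutant library. Of 14 B cell genes all were tested and none was called, with 12 above 0 and a median of 0.41. Cd79a (−0.07 ± 0.53) and Cd79b (−0.30 ± 0.29) were below 0. The median of all tested genes was 0.00098. Without wild type replicate 2, 6 genes of these 3 lists were called higher by edgeR, where 0.662% of all genes tested were called higher. Among them were the B cell genes Cd22, Ms4a1 and Pax5, the coactivator Pou2af1 and Ighg2b. That library was the wild type library with the highest B cell level, so leaving it out widens the difference in these genes by choice. Without wild type replicate 1 or 3, 0 genes of these lists were called. DESeq2 called 2 with all libraries, Igha (adjusted p = 0.0385) and Ighg2b (0.029), where 1.63% of all genes were called higher. Markers of other cell types were also read. Over all 16757 genes tested, 255 were called lower. All 10 T cell genes were called lower, with a summed level of 236 to 310 CPM in wild type and 64.7 to 96.3 CPM in mutant libraries. Of 7 fibroblast genes 1 was called lower and none was above 0, with a median log2 difference of −1.34 and summed levels of 309 to 848 CPM against 250 to 563 CPM. Of 5 erythrocyte genes none was called and none was above 0, with a median of −0.82 and 357 to 583 CPM against 221 to 418 CPM. Of 8 macrophage and dendritic cell genes 1 was called lower and 3 were above 0, with a median of −0.06. Their part in the V read levels was not tested.

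Evenness over the detected segments was high in every library. Of the 89 to 150 segments detected in a library, 37 to 55 had 1 read. With so many segments at 1 read, an index over detected segments says little about true usage. Pielou's index, which is 1 when all detected segments have the same number of reads, was 0.919, 0.910 and 0.935 in wild type and 0.928, 0.934 and 0.913 in mutant libraries. The inverse Simpson number, the number of equally used segments that would give the same chance of drawing 1 segment 2 times, was 56.4, 69.7 and 84.9 in wild type and 70.0, 61.1 and 48.5 in mutant libraries. These ranges overlapped (exact permutation p = 0.50 for the inverse Simpson number). At a common depth of 190 reads, that of the shallowest library, 80.1, 91.5 and 93.6 segments would be detected in wild type and 90.1, 89.0 and 85.4 in mutant libraries. The reads came to 50% of the total with the 18 to 25 leading segments in wild type and the 19 to 23 leading segments in mutant libraries.

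By locus, heavy segments were spread over 37.7, 47.6 and 49.8 effective segments in wild type and 54.0, 39.0 and 45.0 in mutant libraries. Their Pielou index was 0.924 to 0.931 in wild type against 0.941 to 0.946 in mutant libraries, without overlap (exact permutation p = 0.10, adjusted 0.555), while their inverse Simpson number overlapped. Mutant replicate 1, with 134 heavy reads, had an index of 0.946, and wild type replicates 1 and 3, with 129 and 141, had 0.926 and 0.931. The part of read depth in the index was not tested. Kappa segments gave 23.2, 32.1 and 40.1 effective segments in wild type and 28.8, 27.2 and 16.9 in mutant libraries, with the lowest value in mutant replicate 3. The 3 lambda segments gave 1.98, 2.35 and 2.68 against 2.76, 2.85 and 2.39.

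**Figure D3:**
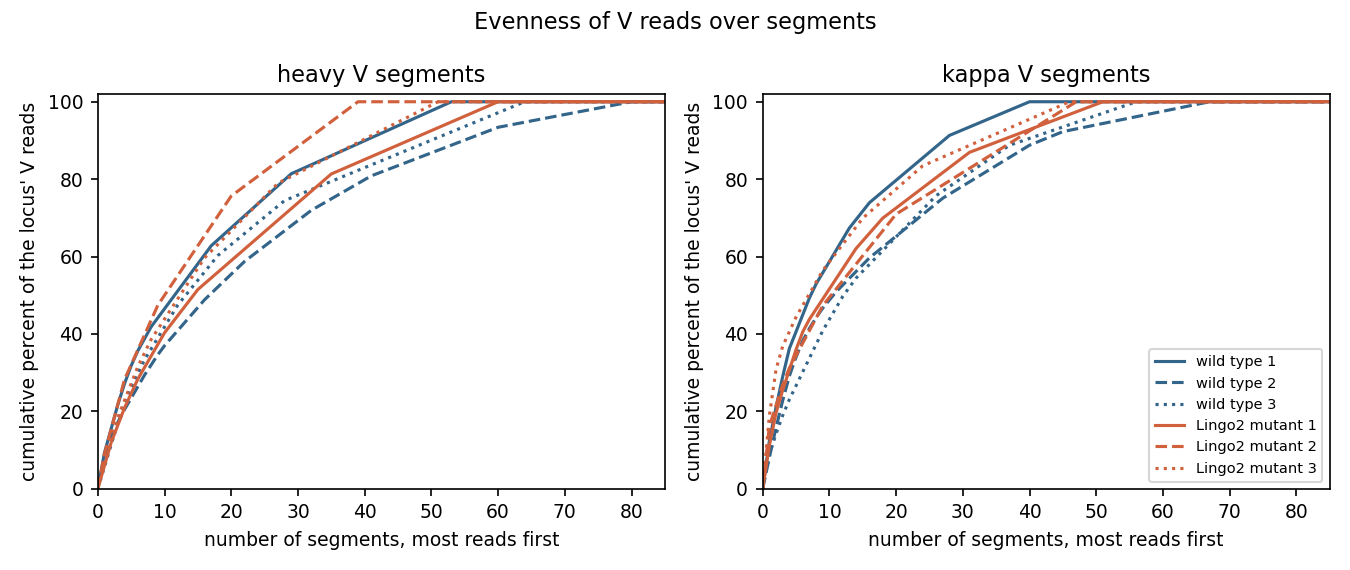
Cumulative percent of a locus' V reads (vertical axis) against the number of segments taken from the one with most reads downward (horizontal axis), with 1 line per library, for heavy and kappa segments. Lines of both genotypes interleave, and the kappa line of mutant replicate 3 starts steepest, with 18.8% on its first segment.

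No segment dominated a library. The leading segment took 5.90% (95% exact Clopper-Pearson interval 3.48% to 9.28%), 4.92% (3.39% to 6.88%) and 4.49% (2.54% to 7.30%) of V reads in wild type replicates 1, 2 and 3. It took 5.40% (3.17% to 8.50%), 7.89% (4.49% to 12.7%) and 9.58% (6.30% to 13.8%) in mutant replicates. The mean was 5.11% ± 0.72 in wild type and 7.62% ± 2.10 in mutant libraries (SD, n = 3 each), and mutant replicate 1 lay within the wild type range (exact permutation p = 0.20, adjusted 0.555, in a design whose smallest p is 0.10). The 5 leading segments took 22.9%, 19.5% and 15.9% in wild type and 19.7%, 22.6% and 25.3% in mutant libraries.

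The leading segment of a locus was often the same one. Ighv1-26 led the heavy segments in 5 of 6 libraries, alone or tied, and Ighv1-82 led in mutant replicate 2 with 7 reads. Igkv1-117 led the kappa segments in wild type replicate 1 and mutant replicate 1, and Igkv1-110 led in the other 4. Iglv1 led the lambda segments in wild type replicates 1 and 2 and in mutant replicate 2, and Iglv3 in the other 3.

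Igkv1-110 (chromosome 6, 68270485 to 68271267) had the most reads of all segments, 103. It had 12, 23 and 15 reads in wild type and 13, 15 and 25 in mutant libraries, which had fewer gene reads. Its share of kappa reads was 8.70%, 8.07% and 8.88% in wild type and 8.50%, 16.1% and 18.8% in mutant libraries, so mutant replicate 1 was at the wild type level and the other 2 mutant libraries were above it. Its level was 0.63 ± 0.17 CPM in wild type against 2.01 ± 0.97 CPM in mutant libraries (SD, n = 3 each). The log2 difference was 1.37 ± 0.42 (edgeR adjusted p = 0.111), against 1.42 ± 0.49 with an adjusted p of 0.0649 in the authors' deposited table. It passed the threshold without mutant replicate 1 (1.78, edgeR adjusted p = 0.0327), where 0.891% of all genes tested were called higher, and without the filter on low counts (1.35, 0.00999). Mutant replicate 1 had the lowest level of the mutant libraries, 0.996 CPM against 2.12 and 2.92. Leaving it out therefore widens the difference by choice. With any other library left out no V segment was called.

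Igkv1-117, with 81 reads, did not move with its near copy in every library. It had 17, 18 and 9 reads in wild type and 17, 4 and 16 in mutant libraries. Its level was 0.680, 0.642 and 0.358 CPM in wild type and 1.30, 0.567 and 1.87 CPM in mutant libraries. In mutant replicate 2, the library with fewest gene reads, it took 4.30% of kappa reads. Igkv1-110, the leading kappa segment there, took 16.1%. The log2 difference of Igkv1-117 was 0.95 ± 0.45 (edgeR adjusted p = 0.279). Igkv10-96 had 10, 22 and 6 reads in wild type and 8, 5 and 8 in mutant libraries, a log2 difference of 0.38 ± 0.49 (edgeR adjusted p = 0.720). Igkv6-15 and Igkv14-111, at 41 and 33 reads, were left out of the test by the filter on low counts. The first had 6, 20 and 2 reads in wild type and 7, 2 and 4 in mutant libraries, and the second 11, 6 and 1 against 9, 3 and 3, and the CPM of both overlapped between genotypes.

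Ighv1-26 (chromosome 12, 114788372 to 114788805) had 12, 25 and 8 reads in wild type and 8, 5 and 9 in mutant libraries, and differed by 0.21 ± 0.47 (log2, edgeR adjusted p = 0.849). Per kilobase of exon, over the 6 libraries, it held 191 reads, below Igkv1-110 at 257 and Igkv1-117 at 200.5. By mean share of heavy reads over the libraries, the next segments were Ighv1-81, Ighv1-82, Ighv1-64 and Ighv6-3, with 34, 30, 28 and 25 reads. Ighv1-81 had 8, 7 and 8 reads in wild type and 3, 3 and 5 in mutant libraries, and Ighv1-82 had 1, 9 and 7 against 2, 7 and 4. Ighv1-64 had 5, 6 and 4 reads against 3, 5 and 5, and Ighv6-3 had 7, 6 and 5 against 4, 2 and 1. None of these 4 passed the filter, so none was tested.

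Iglv1 (chromosome 16, 19085017 to 19085500) had 14, 32 and 6 reads in wild type and 9, 9 and 5 in mutant libraries, and differed by 0.07 ± 0.55 (log2, edgeR adjusted p = 0.961). Iglv3 (chromosome 16, 19241207 to 19241690) had 6, 25 and 13 reads against 14, 7 and 8, and differed by 0.62 ± 0.45 (log2, edgeR adjusted p = 0.487). Per kilobase of exon both held 192 reads over the 6 libraries. Iglv2, the near copy of Iglv1, had 1, 5 and 5 reads against 5, 3 and 1, and did not pass the filter. The share of Iglv1 in lambda reads ran from 25% to 66.7% in wild type and from 32.1% to 47.4% in mutant libraries.

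**Figure D4:**
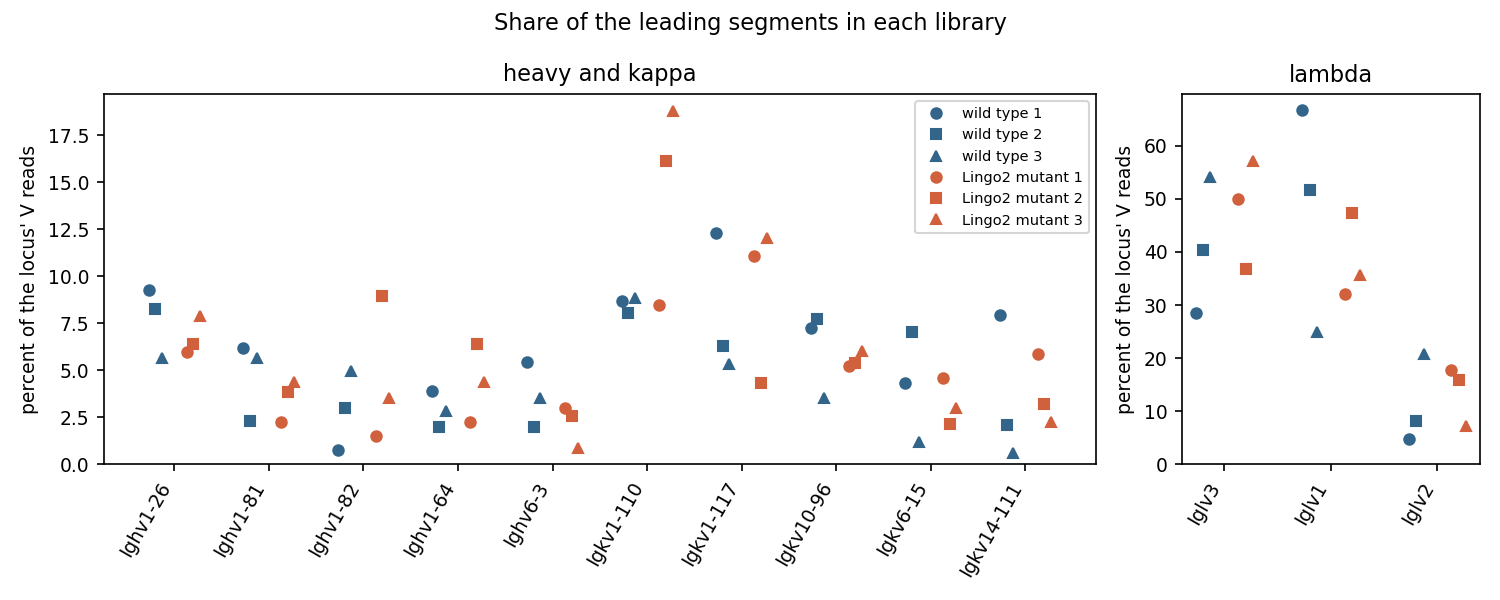
Percent of its locus' V reads (vertical axes, linear from 0) taken by each of 5 heavy, 5 kappa and 3 lambda segments in each library, with color for genotype and marker shape for replicate number. Igkv1-110 at 16.1% and 18.8% in mutant replicates 2 and 3 lies above its other 4 values of 8.07% to 8.88%. Mutant replicate 1, at 8.50%, lies within the wild type range of Igkv1-110, and the other segments overlap between genotypes too.

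Of the 348 segments, 6 passed the filter on low counts and none was called. At an unadjusted p under 0.05, 1 of the 6, Igkv1-110, was higher in mutant libraries and none was lower, and DESeq2 called none of the 2 segments it gave an adjusted p. Among all 16757 genes tested 430 were called, or 2.57%, and 175 were higher in mutant, or 1.04%. All 6 log2 differences were above 0, with a median of 0.50, and 50.1% of all tested genes were above 0. A rare segment passes the filter more easily when it is high in every library of 1 group. The direction of the 6 may therefore be set in part by the filter and is no support for a difference. Without the filter 111 of 201 segments were above 0, with a median of 0.19, against 44.7% of all genes. In CPM, 2 of the 6 (Iglv3 and Igkv1-110) had every mutant library above every wild type library, and 1 of the 6 (Igkv1-110) had so after TMM scaling, where all tested genes gave 34.7% and 12.3%. Without the filter, 201 segments were tested and 2 were called, Igkv1-110 and Ighv5-9-1, the latter with 1, 2 and 1 reads in wild type and 6, 2 and 5 in mutant libraries (log2 difference 2.74, edgeR adjusted p = 0.0335). Of all 28829 genes tested without the filter 562 were called higher, or 1.95%, so 2 of 201 is no larger a share than the background.

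By family, the share of reads followed the number of genes in some and not in others. Ighv1, the largest heavy family with 93 of 185 segments, held 54.8% of heavy reads, which is near its 50.3% of heavy segments. Igkv1 held 22.6% of kappa reads with 13 of 160 segments, and Igkv4, with 33 segments, held 14.7%. Igkv1 took 19.5% ± 3.20 of kappa reads in wild type and 27.9% ± 6.43 in mutant libraries. Ighv5 took 6.44% ± 1.57 of heavy reads in wild type and 12.1% ± 2.90 in mutant libraries (SD, n = 3 each), from 6, 23 and 10 reads against 18, 11 and 10. Igkv5 took 7.005% ± 0.30 of kappa reads against 5.73% ± 0.70, Igkv2 took 3.004% ± 1.498 against 0.90% ± 0.99, and Igkv13 took 1.15% ± 0.48 against 2.59% ± 0.43. Igkv2 rests on only 3, 6 and 8 reads in wild type and 3, 0 and 1 in mutant libraries. Igkv13 rests on 2, 4 and 1 reads against 4, 2 and 4. These 5 of the 39 families, 36 of which had reads, were those whose shares did not overlap between genotypes, 3 of them higher in mutant. These shares were not tested, and Igkv1 rests mostly on the reads of Igkv1-110 and Igkv1-117.

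Segments along the whole of each locus gave reads. Counted in order from the J segments, the 93 of 185 heavy segments farther from J held 56.0% of heavy reads and the 80 of 160 kappa segments farther from J held 53.1% of kappa reads. For kappa the share was 52.9%, 45.6% and 50.9% in wild type and 58.2%, 58.1% and 63.2% in mutant libraries, which include the reads of Igkv1-110 and Igkv1-117. For heavy it was 55.0%, 56.8% and 61.0% against 53.7%, 51.3% and 54.4%, and there the mutant libraries were all below the wild type libraries. Neither share was tested.

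**Figure D5:**
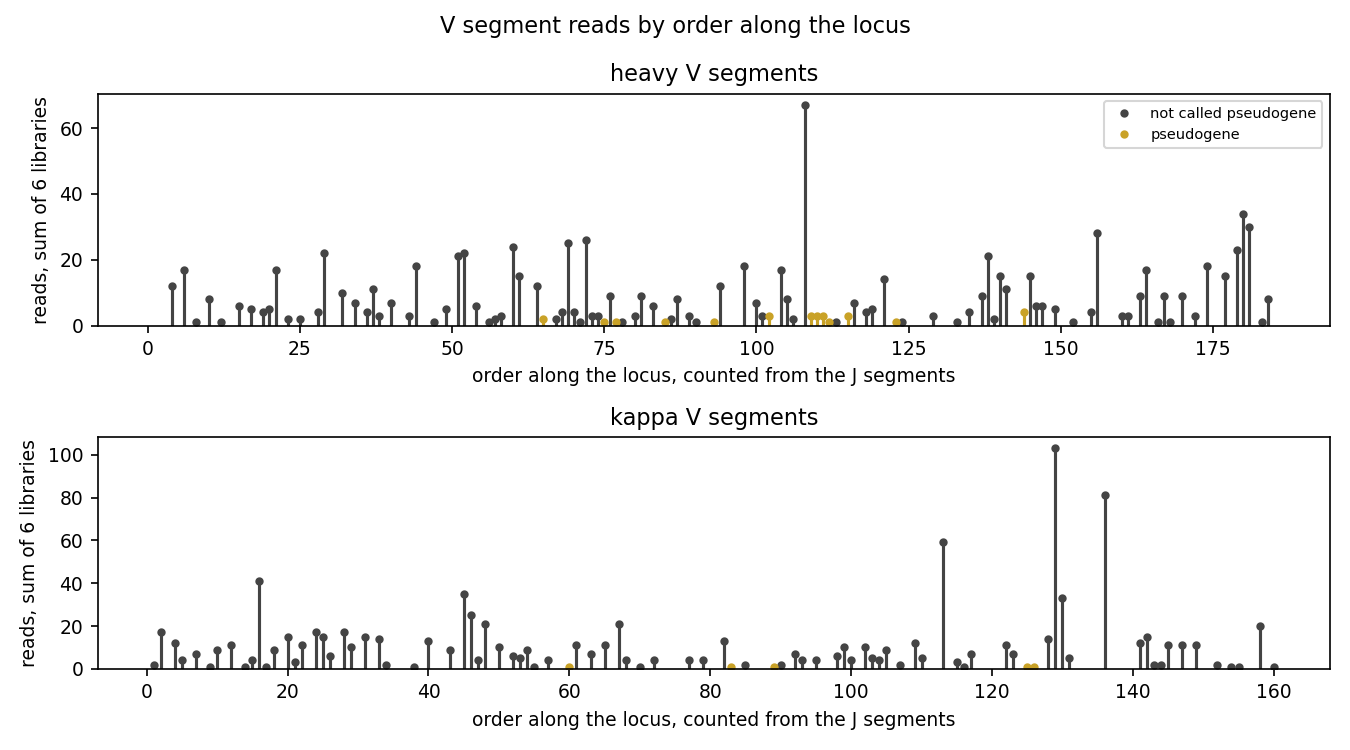
Reads of each segment summed over the 6 libraries (vertical axis) against its order along the locus counted from the J segments (horizontal axis), for heavy and kappa segments, with pseudogenes in another color. Reads lie along both loci, with single peaks at Ighv1-26 (67), Igkv1-110 (103) and Igkv1-117 (81).

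The likeness of segment shares between libraries overlapped for pairs within and between genotypes. The Morisita index, which compares the shares of segments between 2 libraries, allows for depth and is near 1 when the 2 libraries draw from the same shares, was 0.802 to 0.891 for the 3 pairs within wild type and 0.907 to 0.970 for the 3 pairs within mutant. Every pair within wild type was thus below every pair within mutant. The index was 0.846 to 0.984 for the 9 pairs between genotypes. This is a description without a test, since pairs share libraries.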

How the data were processed

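Total RNA of the colon epithelial fraction was sequenced after ribosomal RNA removal with a stranded kit, per the labels' protocols. The submitters' processing notes name build GRCm38 and Trimmomatic 0.39, STAR, HTSeq and DESeq2. No source used here gives the strand setting or how reads mapping to several places were treated. The main deposited file gives raw counts of reads per gene as whole numbers. Its 5 summary lines were left out. They hold reads in no feature, which were 18.5% to 22.1% of counted alignments in wild type against 23.6% to 27.6% in mutant libraries, and other unassigned reads. The authors' deposited comparison table gives a normalized signal per library, log2 fold changes, test scores and p-values, of which only the row of Igkv1-110 is printed. In 100% of values (relative tolerance 1e-06) that signal is the count scaled by 1 factor per library.

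Symbols, positions and sequences came from GENCODE M21. A symbol was found for 45229 of 46078 gene rows. Ighv1-13 and Ighv5-8 each name more than 1 gene, and these had 0 reads. The members and lists were chosen with earlier results of these data known. Counts of all genes were tested with edgeR 4.0.16 (filterByExpr, TMM, robust quasi-likelihood F test on genotype, Benjamini-Hochberg, threshold 0.05) in R 4.3.3, and the script was tested on simulated data. For the summed differences the V rows of each locus were replaced by their sum. Standard errors are the log2 difference divided by the square root of F. A count of 0 allows 3 reads, which is 0.107 to 0.120 CPM in a wild type and 0.230 to 0.425 CPM in a mutant library. Intervals are at 95% and cover counting error only. Values per library were compared with exact two-sided permutation tests in scipy 1.17.1. Alternatives were DESeq2 1.42.0 (test and size factors), no filter, a scaling without mitochondrial, haemoglobin and immunoglobulin genes, a replicate block, and each library left out. Named segments were the 5 with the highest mean share of each locus, the leading segment of each library, all Iglv genes and called segments. Some list genes are not reported here by name.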

Additional observations from a re-analysis of the deposited data

How the results depend on the processing

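The summed log2 differences stayed above 0 under every alternative run. With each library left out in turn they ran from 0.27 to 0.83 for heavy, 0.44 to 0.87 for kappa, 0.22 to 0.97 for lambda and 0.38 to 0.87 for all segments together, and kappa and the total passed the threshold only without wild type replicate 2 (0.87 each). Without the filter on low counts, kappa was 0.60 and the total 0.52 and both passed it, with 28631 rows tested for kappa in place of 16754. The count of called V segments, 0 in the main analysis, was 2 without the filter and 0 to 1 with a library left out. The count of called constant, plasma cell and B cell genes, 0 in the edgeR test, was 2 in DESeq2, 5 without the filter, 1 with the replicate block and 0 to 6 with a library left out. These genes were higher in mutant libraries. Over all genes tested, 249 of 15295 were called higher in DESeq2, 562 of 28829 without the filter and 129 of 16757 with the block. Without wild type replicate 2, which gave the 6, it was 106 of 16006. The difference in Pielou's index, 0.0035 for mutant minus wild type, was −0.0098 over segments with at least 10 reads and ran from −0.0021 to 0.010 with a library left out. That of the log2 kappa to lambda ratio, 0.09, ran from −0.21 to 0.27. The causes of these changes were not tested.

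Same-numbered libraries did not deviate together (r = −0.13, 0.12 and −0.02 across genes), so the numbers were not taken as pairs. With the replicate block, the log2 differences were 0.52 for heavy, 0.65 for kappa, 0.54 for lambda and 0.59 for all segments (edgeR adjusted p = 0.311, 0.114, 0.412 and 0.188), and 360 genes were called in place of 430. Of the values recomputed under other settings, 136 kept their direction and side of the threshold or stayed within the spread, 7 counts moved, 5 values reversed and 4 newly passed the threshold. Over all genes, 175 were called higher and 255 lower, against 562 and 931 without the filter, 249 and 407 in DESeq2, 59 and 115 when mutant replicate 2 was left out, 71 and 109 when mutant replicate 3 was, and 207 and 467 without wild type replicate 3. Depth limits single segments most, since only 6 had enough reads to be tested. The all-segment sum, the TMM-scaled levels, shares per exon length, the constant gene ratio by isotype and some list settings were added after seeing the data.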

Other observations

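Genes of V(D)J recombination had few reads. Rag1 and Rag2, the recombinase, had 1 read each over the 6 libraries, and Igll1, a part of the surrogate light chain, had 1. Vpreb1, its partner, had 4, 2 and 2 reads in wild type and 2, 0 and 1 in mutant libraries.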
